A study of Rattus norvegicus with 120 samples.

Results

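The genes described here are 38 genes of the unfolded protein response and the amino acid stress response. They were chosen by name from what they are known to do, with earlier results of these data known. The share of all genes given beside a count of members is therefore a description. Of these 38 genes, 37 had a probe set that maps to the gene alone, and Ern1, a sensor kinase of the endoplasmic reticulum, was not on the array. For each gene the probe set with the highest mean over all 120 arrays was used. Trib3 and Mthfd2 lay among the dimmest 25% of genes and were left out of the tests, so that 35 members were tested among 10663 genes, out of 14217 genes with a probe set of their own. The arrays were Affymetrix Rat 230 2.0 GeneChips, which report 1 fluorescence intensity for each probe set, here of whole kidney tissue from both kidneys of each rat.

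Male Sprague-Dawley rats, aged 5-7 weeks before treatment, received daily intraperitoneal doses and were killed 24 hours after the last of 1, 7, 14 or 28 doses. The groups were CsA (cyclosporine) at 25 or 2.5 mg/kg/day, FK506 (tacrolimus) at 6 or 0.6 mg/kg/day, Rapa (rapamycin) at 10 or 1 mg/kg/day, and olive oil, the vehicle. CsA and FK506 are immunosuppressants that inhibit the phosphatase calcineurin and can injure the kidney, while Rapa inhibits the kinase mTOR. Each of the 28 groups held 3 to 6 rats. At day 28 there were 4 rats on CsA 25 mg/kg, 5 on CsA 2.5 mg/kg, 5 on FK506 6 mg/kg, 6 in each of the other drug groups and 5 on vehicle. All other groups had 4 rats, except FK506 6 mg/kg at day 14 with 3. "Day" below means the number of daily doses. All drug groups of a day were set against the same vehicle rats, so comparisons of different drugs with vehicle share those arrays.

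Proteins that enter the secretory pathway fold in the endoplasmic reticulum (ER) with the help of chaperones such as Hspa5 (BiP) and of protein disulfide isomerases. When unfolded proteins accumulate, the sensors Eif2ak3 (PERK), Ern1 (IRE1) and Atf6 raise transcription of chaperones, of the degradation machinery that removes misfolded proteins, and of the transcription factors Xbp1, Atf4 and Ddit3 (CHOP). Atf4 is also reached through amino acid shortage, and its known targets include Asns, which makes asparagine, and the enzymes of serine synthesis. Kidney tubule cells make large amounts of membrane and secreted protein, and ER stress markers are commonly followed there in studies of drug injury.

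Many chaperone genes carry a short promoter element read by ATF6 and XBP1. RefSeq promoters of build GRCr8, each running from 250 bases before to 50 bases after the gene start, were given for 32 of the 38 members. The ER stress response element, ERSE, was searched as CCAAT, 9 bases of any kind and CCACG on both strands. It lay in a promoter of 7 of 32 members (21.9%), against 22 of 33469 promoters in all (0.0657%), those of the members among them. The share of members is counted per gene, where Hyou1 had more than 1 promoter, and that of all is counted per promoter. The related ERSE-II, searched as ATTGG, 1 base of any kind and CCACG, lay in a promoter of 3 members (9.38%), Dnajb11, Herpud1 and Hyou1, against 0.0508% of all promoters. The sequences below show the element in several of these members, among them Creld2, Herpud1 and Hyou1, which were called in no comparison with vehicle. Each is written 5′ to 3′ in the direction of the gene, with the element in capitals, which reads as its reverse complement where it lies on the opposite strand.
Hspa5, chr3:38452963-38453001, plus strand: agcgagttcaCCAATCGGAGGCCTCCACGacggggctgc
Hsp90b1, chr7:23012441-23012479, minus strand: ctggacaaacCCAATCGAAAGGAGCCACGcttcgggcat
Hsp90b1, chr7:23012337-23012375, minus strand, element reversed: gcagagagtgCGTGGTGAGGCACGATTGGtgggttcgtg
Xbp1, chr14:84604548-84604586, plus strand: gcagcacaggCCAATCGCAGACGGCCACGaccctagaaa
Dnajc3, chr15:102432524-102432562, plus strand: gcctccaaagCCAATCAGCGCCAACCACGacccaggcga
Calr, chr19:40213125-40213163, plus strand, element reversed: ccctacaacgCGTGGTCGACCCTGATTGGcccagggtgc
Creld2, chr7:121789229-121789267, plus strand, element reversed: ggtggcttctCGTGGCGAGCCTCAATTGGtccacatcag
Herpud1, ERSE-II, chr19:10614811-10614841, minus strand: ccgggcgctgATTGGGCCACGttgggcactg
Hyou1, ERSE-II, chr8:53602684-53602714, plus strand, element reversed: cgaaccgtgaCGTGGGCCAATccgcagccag
Hyou1, ERSE-II, chr8:53602784-53602814, plus strand, element reversed: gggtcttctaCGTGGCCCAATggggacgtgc

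The 250 bases before the Hspa5 start, chr3:38452766-38453015 on the plus strand, are shown because Hspa5 is the reference chaperone of this response. They held 61.6% G and C, and the ERSE began 43 bases before the start.
Hspa5, 250 bases upstream: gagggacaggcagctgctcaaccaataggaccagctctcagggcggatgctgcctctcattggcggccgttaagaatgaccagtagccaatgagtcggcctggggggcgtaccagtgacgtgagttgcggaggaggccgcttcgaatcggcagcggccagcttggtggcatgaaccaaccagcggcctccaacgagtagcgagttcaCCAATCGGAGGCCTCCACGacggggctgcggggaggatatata

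The UPRE, an XBP1 element searched as TGACGTGG, lay in the Hyou1 promoter and in 0.595% of all promoters. The amino acid response element CARE, searched as TGATGNAA, lay in the promoters of Herpud1 and Trib3 and in 3.98% of all promoters, and no match was found in the Asns window of this annotation. The Trib3 match is printed because Trib3 is a classical Atf4 target.
Trib3, CARE, chr3:161275537-161275564, minus strand, element reversed: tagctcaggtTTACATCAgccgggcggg
A match describes these letters in this window and is not evidence of binding.

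Values are levels on the log2(intensity + 16) scale after quantile normalization, and differences are log2 changes from 1 limma model of all arrays. A member is called, and said to have risen or fallen, at an adjusted p under 0.05 over the 10663 genes of that comparison. Levels of different genes are not set against each other, since probe sets differ in their binding. The tubule markers Umod (13.3 to 14.0), Slc34a1 (13.4 to 13.8) and Lrp2 (12.9 to 13.4) were bright on all 120 arrays. One array, CsA 25 mg/kg at day 28, replicate 3, held 5273 intensities of 0 (17.0% of its probe sets) and correlated with its group at 0.880, against 0.945 or more for every other array, and the counts of CsA 25 mg/kg members called at that day are given with and without it. Marker sums and the counts of related genes include it. All members had intensities above 0 on it. In 4 arrays the liver gene Alb exceeded a level of 12, namely 2 on CsA 25 mg/kg at day 1 and 1 each on CsA 2.5 mg/kg at days 14 and 28. In bulk tissue, fewer cells of a type and less RNA per cell cannot be told apart.

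Across the 28 groups, of the tested members, Asns had the widest range of group means, 1.66 on the log2 scale, with its mean at 8.46 on CsA 25 mg/kg at day 14 and at 6.80 on Rapa 10 mg/kg at day 7. Sdf2l1, a partner of Hspa5 complexes, ranged over 1.28, with its mean at 9.03 on CsA 25 mg/kg at day 14 and at 7.75 on Rapa 10 mg/kg at day 14. The serine synthesis enzyme Psph ranged over 1.18, the Hspa5-binding factor Manf over 1.12, the serine synthesis enzyme Phgdh over 1.12 and the Hspa5 co-chaperone Dnajb9 over 1.07. Derl1, a channel component of ER-associated degradation, had the narrowest range, 0.34. A CsA 25 mg/kg group held the highest mean of Asns, Sdf2l1, Psph, Manf and Dnajb9. Phgdh differed, with its mean at 10.60 on FK506 0.6 mg/kg at day 7 and at 9.48 on Rapa 1 mg/kg at day 14.

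**Figure D1:**
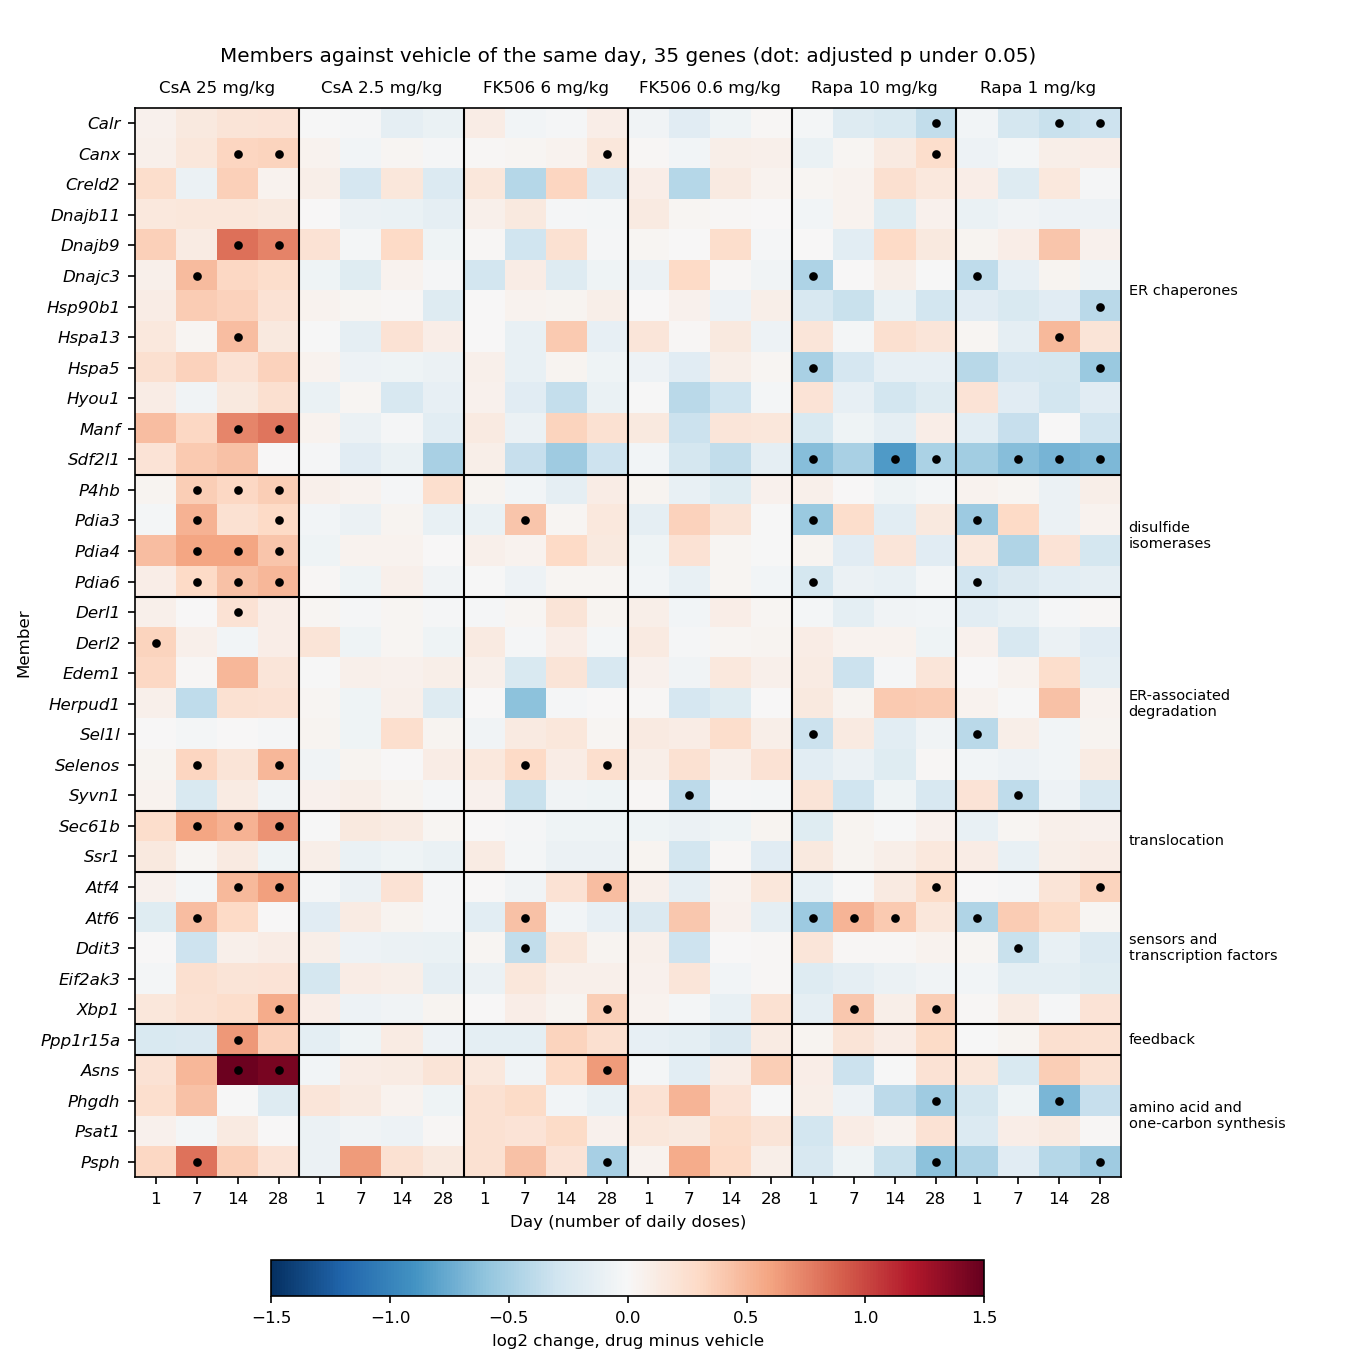
Log2 change of the 35 tested members (down the page, grouped by role) in the 24 comparisons of a drug dose with vehicle of the same day (across), with a dot where the adjusted p was under 0.05. The CsA 25 mg/kg columns at days 7, 14 and 28 hold 9, 12 and 12 dots, all in the higher direction.

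CsA at 25 mg/kg moved members in 1 direction. After 1 dose only Derl2, a degradation channel component, rose, among 0.675% of genes called in either direction. Its level was 9.23, 9.11, 9.42 and 9.36 in CsA rats, against 9.09, 8.93, 8.95 and 8.81 in vehicle rats. The groups did not overlap, and the change was 0.33 (SE 0.08, adjusted p = 0.0265). The call did not hold without the 2 CsA rats with high Alb. At that day 5 of 7 tested liver markers were higher with CsA, and their summed intensity was 6022 to 67838 in CsA rats, against 5001 to 7705 in vehicle rats, and their part in the result was not tested.

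After 7 doses of CsA 25 mg/kg, 9 of 35 members (25.7%) rose and none fell, against 2.17% of all genes higher and 1.8% lower. The disulfide isomerases, which form and rearrange disulfide bonds, rose in full, 4 of 4, with a median log2 change of 0.45. Psph, the last enzyme of serine synthesis, had the largest change among the called members. Its level was 9.20, 9.93, 9.65 and 9.95 in CsA rats, against 9.21, 8.74, 8.94 and 8.59 in vehicle rats. The lowest CsA rat lay just under the highest vehicle rat, and the change was 0.81 (SE 0.19, adjusted p = 0.00392). Sec61b, a subunit of the channel through which new proteins enter the ER, was at 11.19, 10.90, 10.91 and 10.93 in CsA rats, against 10.44, 10.30, 10.45 and 10.36 in vehicle rats. These groups were well apart, with a change of 0.59 (SE 0.11, adjusted p = 0.00034). Pdia4 was at 9.21, 8.69, 9.08 and 9.30 in CsA rats, against 8.89, 7.86, 8.64 and 8.54 in vehicle rats, which overlapped (change 0.59, SE 0.15, adjusted p = 0.0135). Pdia3, which works with calnexin and calreticulin on glycoproteins, was at 12.03, 11.92, 11.85 and 11.85 in CsA rats, against 11.35, 11.63, 11.37 and 11.20 in vehicle rats. All CsA rats were above all vehicle rats, by 0.53 on average (SE 0.11, adjusted p = 0.00102). The other members that rose were Dnajc3, an inhibitor of Eif2ak3 and co-chaperone (0.48), Atf6 (0.47), P4hb, the most abundant disulfide isomerase in many cells (0.37), Selenos, a membrane selenoprotein of the degradation complex (0.32), and Pdia6 (0.29).

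A measure of RNA integrity differed between the groups of day 7, and why it differed was not tested. The Gapdh 3′ minus 5′ level, a log2 measure that grows as copies of the 5′ end are lost, averaged 0.44 ± 0.06 in CsA 25 mg/kg rats (SD, n = 4), against 0.76 ± 0.13 in vehicle rats (SD, n = 4). Its average was 0.85 with CsA 2.5 mg/kg, near that of vehicle, and 0.40 to 0.44 in the FK506 and Rapa groups of day 7. In the order of the samples, values of 0.57 or more formed a run across groups. It went from FK506 6 mg/kg replicate 4 of day 1 (0.62) through both Rapa groups of day 1 and vehicle of day 7. It ended within a group, at CsA 2.5 mg/kg replicate 3 of day 7 (1.28), and replicate 4 was at 0.38. What this order reflects was not tested. With that measure of each array in the model, P4hb, Psph, Sec61b, Pdia4, Pdia6 and Dnajc3 were still called, while Pdia3 had a change of 0.36 (adjusted p = 0.0504), Selenos of 0.29 (adjusted p = 0.0518) and Atf6 of 0.23 (adjusted p = 0.356). P4hb, Psph and Sec61b remained called under every setting tried and with every single rat left out.

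After 14 doses of CsA 25 mg/kg, 12 of 35 members (34.3%) rose and none fell, against 4.75% of all genes higher and 3.14% lower. The median change of the members was 0.30, and 33 of 35 lay above 0, while the median of all genes was -0.01. Among the amino acid enzymes, Asns rose most, with levels of 8.22, 8.71, 7.78 and 9.14 in CsA rats, against 7.50, 6.52, 6.94 and 7.02 in vehicle rats. The groups did not overlap, the change was 1.46 (SE 0.19, adjusted p = 3.02e-08) and the fold was 2.76. Psph, Psat1 and Phgdh were not called, with changes of 0.35, 0.13 and -0.00.

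Among the chaperones at day 14, Dnajb9 stood at 9.91, 10.32, 10.31 and 10.09 in CsA rats, against 9.17, 9.39, 9.53 and 9.24 in vehicle rats, a change of 0.83 (SE 0.16, adjusted p = 0.000209). Manf stood at 10.35, 10.51, 10.45 and 10.65 in CsA rats, against 9.60, 10.14, 9.71 and 9.60 in vehicle rats, a change of 0.73 (SE 0.16, adjusted p = 0.00137). In neither gene did a CsA rat reach down into the vehicle range. Hspa13, an Hsp70 relative of the ER (0.47), and the lectin chaperone Canx (0.32) rose too, so 4 of 12 chaperones rose. Of the 4 isomerases 3 rose, Pdia4 by 0.59, Pdia6 by 0.44 and P4hb by 0.31. Sec61b rose by 0.52, Derl1 by 0.21 and the transcription factor Atf4 by 0.49. Ppp1r15a (GADD34), which brings a phosphatase to eIF2α and ends the translation block, was at 8.21, 8.28, 7.99 and 8.24 in CsA rats, against 7.19, 7.89, 7.45 and 7.62 in vehicle rats. Its change was 0.65 (SE 0.17, adjusted p = 0.00729), with no overlap, and the call did not hold without vehicle replicate 1.

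After 28 doses of CsA 25 mg/kg, 12 of 35 members (34.3%) again rose and none fell, against 10.5% of all genes higher and 10.7% lower. Asns was at 8.17, 8.40, 8.46 and 8.43 in CsA rats, against 6.75, 6.74, 7.10, 7.23 and 6.90 in vehicle rats. Every CsA rat lay well above the highest vehicle rat, with a change of 1.42 (SE 0.18, adjusted p = 3.2e-09) and a fold of 2.68. Manf was at 10.41, 10.87, 10.60 and 10.74 in CsA rats, against 9.56, 9.99, 9.45, 10.10 and 10.18 in vehicle rats (change 0.80, SE 0.15, adjusted p = 4.8e-05). Dnajb9 was at 10.09, 10.71, 10.07 and 10.60 in CsA rats, against 9.31, 9.54, 9.77, 9.89 and 9.58 in vehicle rats (change 0.75, SE 0.15, adjusted p = 0.000131). Both were higher in all CsA rats than in any vehicle rat. Sec61b was at 10.91, 11.18, 10.91 and 11.49 in CsA rats, against 10.90, 10.35, 10.26, 10.40 and 10.35 in vehicle rats (change 0.67, SE 0.11, adjusted p = 1.16e-06), where 1 vehicle rat came close to the lowest CsA rats.

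Of the sensors and transcription factors, Atf4 and Xbp1 rose at day 28. Atf4 averaged 11.41 ± 0.20 in CsA rats (SD, n = 4), against 10.80 ± 0.07 in vehicle rats (SD, n = 5), a change of 0.61 (adjusted p = 2.02e-06). Xbp1, which IRE1 activates by splicing its mRNA, averaged 11.40 ± 0.19 in CsA rats (SD, n = 4), against 10.85 ± 0.12 in vehicle rats (SD, n = 5), a change of 0.55 (adjusted p = 2.25e-05). The probe set reports the total Xbp1 level and says nothing of splicing. All 4 isomerases rose, Pdia6 by 0.50, Pdia4 by 0.41, P4hb by 0.37 and Pdia3 by 0.30, with a median of 0.39, although Pdia3 overlapped between the groups. Selenos rose by 0.50 and Canx by 0.33. Without the array that held the zeros, 11 members were called, Asns at 1.39 and Sec61b at 0.74, and the member lost was Pdia4 (0.41, adjusted p = 0.0723).

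Pdia4, Pdia6, P4hb and Sec61b rose at each of days 7, 14 and 28, 11 members rose on at least 2 days and 19 on at least 1, and none was lower with CsA 25 mg/kg on any day. Such counts over days were not made for all genes, so these have no background beside them. Hspa5, the central chaperone of this response, was not called on any day. It changed by 0.22 at day 14 (95% interval -0.06 to 0.50, adjusted p = 0.377) and by 0.34 at day 28 (95% interval 0.07 to 0.61, adjusted p = 0.0577). Ddit3, the transcription factor tied to cell death under prolonged ER stress, changed by 0.08 at day 14 (95% interval -0.14 to 0.29) and by 0.11 at day 28 (95% interval -0.09 to 0.31). Herpud1, a scaffold of the degradation complex, changed by 0.23 and 0.22 on those days, and Hyou1, an exchange factor for Hspa5, by 0.15 and 0.24, with neither called. Of the members with a promoter given, 1 of 10 with an ERSE or ERSE-II and 8 of 20 without rose at day 14, with medians of 0.25 and 0.33, and 2 of 10 and 7 of 20 rose at day 28, with medians of 0.23 and 0.19.

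**Figure D2:**
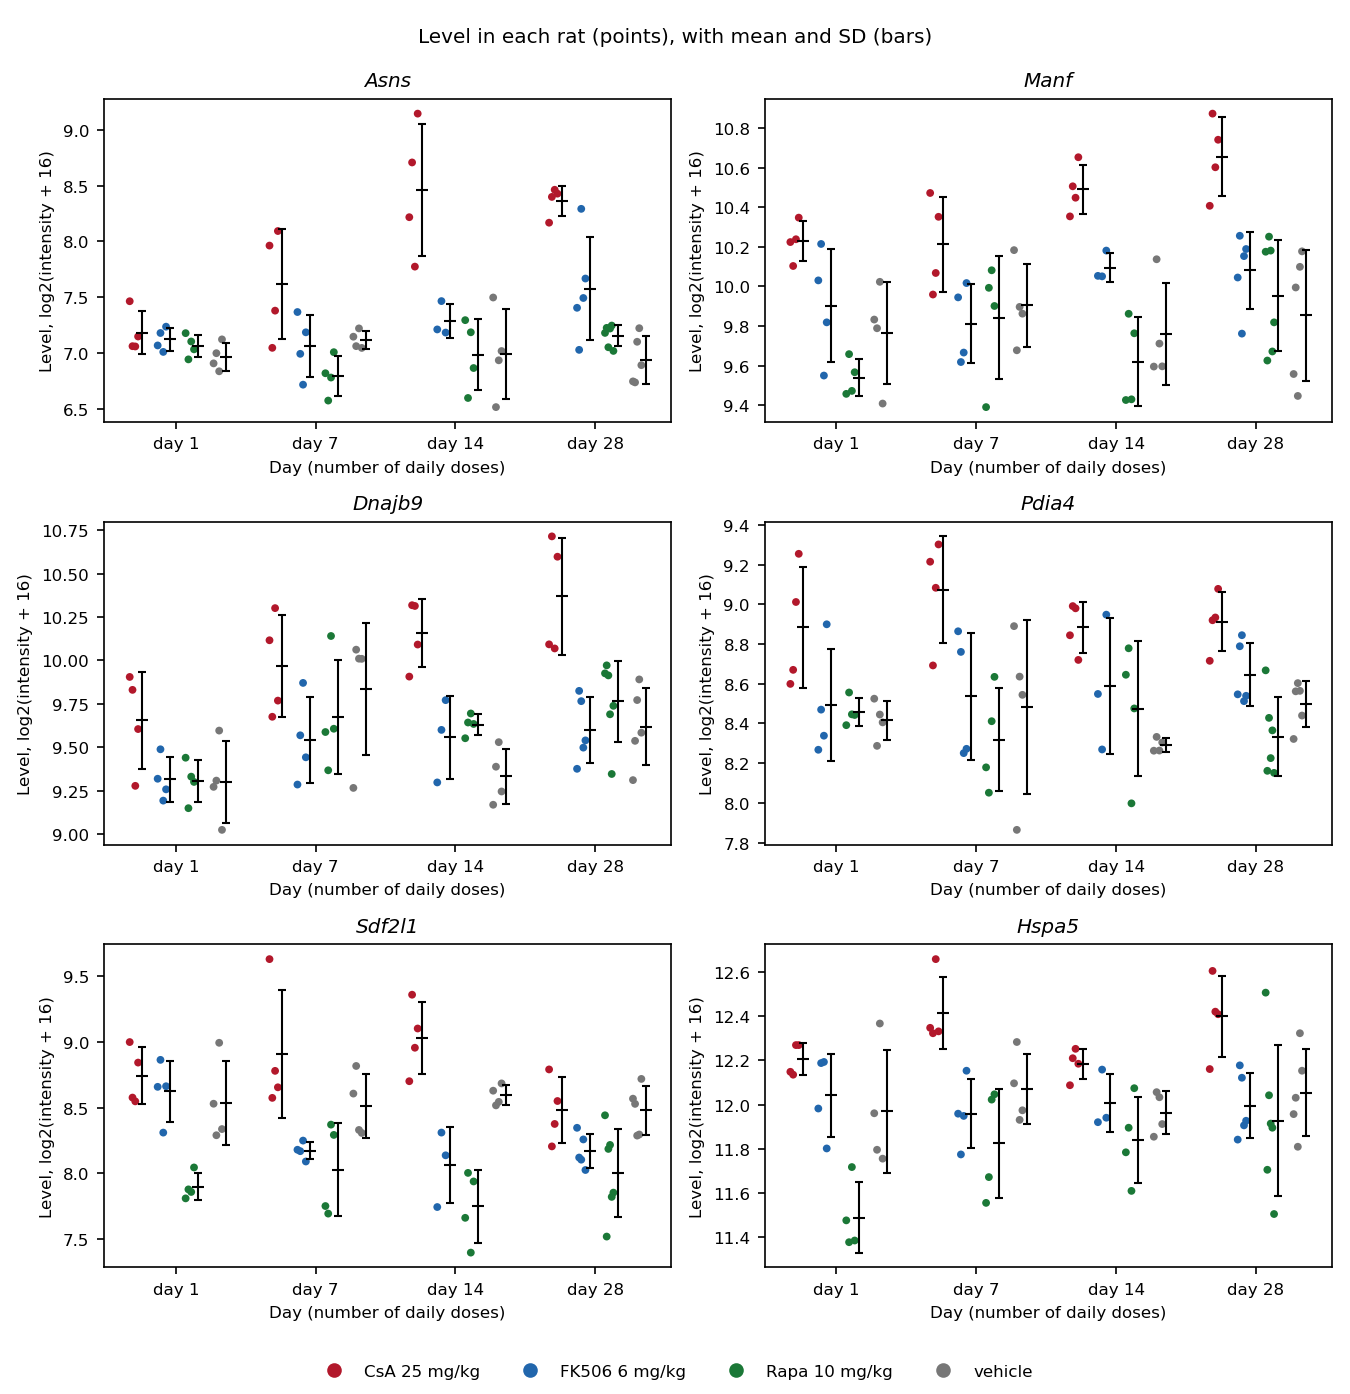
Level of Asns, Manf, Dnajb9, Pdia4, Sdf2l1 and Hspa5 (log2(intensity + 16), 1 panel per gene) in each rat, by day, for CsA 25 mg/kg, FK506 6 mg/kg, Rapa 10 mg/kg and vehicle, with 1 point per rat and a bar for the group mean ± SD. At day 28 the CsA rats of Asns lie at 8.17 to 8.46, above the vehicle rats at 6.74 to 7.23, while at day 14 the Rapa rats of Sdf2l1 lie at 7.39 to 8.0, below the vehicle rats at 8.52 to 8.68.

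Markers of injured tubule and of myeloid cells moved with CsA as well. Of 9 tubular injury markers tested, 0 were higher at day 7, 6 at day 14 and 8 at day 28, and their summed intensity at day 28 was 24514 to 32814 in CsA rats, against 5691 to 8040 in vehicle rats. Havcr1, the kidney injury molecule, changed by 0.71 at day 7 (adjusted p = 0.566), 4.15 at day 14 and 4.42 at day 28. Of 10 macrophage and myeloid markers, 6, 6 and 10 were higher at days 7, 14 and 28, with a sum at day 28 of 8884 to 17091 in CsA rats, against 6312 to 7986 in vehicle rats. Of 11 tubule markers, 2, 3 and 5 were lower on those days, with a sum at day 28 of 48671 to 52013 in CsA rats, against 60001 to 63246 in vehicle rats. Plasma cells, which hold much ER, were covered by Jchain, which changed by 1.13 at day 14 (adjusted p = 0.0172) and by 0.34 at day 28 (adjusted p = 0.479). The other plasma and B cell markers on the array, Cd79b, Ms4a1, Mzb1, Pou2af1 and Tnfrsf17, were dim. The part of these cells in the members' changes was not tested.

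CsA at 2.5 mg/kg called no member on any of the 4 days in limma, with 2, 1, 2 and 2 of 35 members at an unadjusted p under 0.05 on days 1, 7, 14 and 28, while the share of all genes called was 0, 0, 0.0656 and 0 percent. Of all 10663 genes, 246, 847, 749 and 425 reached that unadjusted limit. The higher dose was therefore set directly against the lower one. At day 7, 9 members were higher with 25 mg/kg and none lower, against 1.46% of genes higher and 1.09% lower, led by Dnajc3 (9.78 against 9.12, a difference of 0.66) and Pdia3 (11.91 against 11.30, a difference of 0.61). The Gapdh 3′ minus 5′ level averaged 0.44 ± 0.06 in the 25 mg/kg rats, against 0.85 ± 0.37 in the 2.5 mg/kg rats (SD, n = 4 each). With it in the model 4 members were called, and Dnajc3 was the one called under every setting tried and with every single rat left out. At day 14, 12 were higher and none lower, against 3.85% and 1.72% of genes, with Asns at 8.46 against 7.12 (difference 1.34, SE 0.19, adjusted p = 6.35e-07) and Manf at 10.49 against 9.74 (difference 0.75). The count was 6 with each probe set tested apart and 6 without the arrays of high Alb, and Manf, Pdia6, P4hb, Canx and Asns were called under every setting and with every single rat left out. At day 28, 17 of 35 were higher and none lower, against 8.75% and 9.69% of genes. Asns led again (8.36 against 7.14, difference 1.22, adjusted p = 2.3e-07), followed by Manf (10.66 against 9.70, difference 0.96, adjusted p = 1.89e-06) and Dnajb9 (10.37 against 9.56, difference 0.81). In this comparison Hspa5 (difference 0.44), Hsp90b1, the ER Hsp90 (0.41), Calr (0.31), Dnajb11 (0.28) and the sensor Eif2ak3 (0.34) were also higher. Without the array that held the zeros, 15 members were higher. At day 1 limma called 0 members between these doses, against 0.6% of all genes in either direction. An unadjusted p under 0.05 was found for 4 of 35 members and 811 of 10663 genes.

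FK506, the other calcineurin inhibitor, moved fewer members. At 6 mg/kg none was called at day 1 or at day 14 in limma, against 0.0281% and 2.68% of all genes called in either direction. An unadjusted p under 0.05 was found for 1 and 5 of 35 members, and for 665 and 1751 of 10663 genes. At day 7, 3 members rose and 1 fell, against 1.78% of genes higher and 1.42% lower. Atf6 was at 9.40, 9.39, 9.53 and 9.45 in FK506 rats, against 9.17, 9.22, 8.72 and 8.88 in vehicle rats (change 0.44, SE 0.13, adjusted p = 0.0291). Pdia3 was at 11.77, 11.75, 11.78 and 11.91 in FK506 rats, against 11.35, 11.63, 11.37 and 11.20 in vehicle rats (change 0.41, SE 0.11, adjusted p = 0.0167). In both genes the groups were apart. Ddit3 was at 7.90, 7.87, 8.01 and 7.98 in FK506 rats, against 8.29, 8.10, 8.43 and 8.41 in vehicle rats, lower in every FK506 rat (change -0.36, SE 0.11, adjusted p = 0.0372). Selenos was at 10.52, 10.50, 10.28 and 10.39 in FK506 rats, against 10.07, 10.01, 10.22 and 10.19 in vehicle rats (change 0.30, SE 0.08, adjusted p = 0.024). The Gapdh 3′ minus 5′ level averaged 0.44 ± 0.08 in these FK506 rats (SD, n = 4), against 0.76 ± 0.13 in vehicle rats (SD, n = 4), and with it in the model none of these 4 members was called.

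After 28 doses of FK506 6 mg/kg, 5 members rose and 1 fell, against 8.73% of all genes higher and 7.29% lower. Asns was at 7.41, 7.03, 8.29, 7.50 and 7.67 in FK506 rats, against 6.75, 6.74, 7.10, 7.23 and 6.90 in vehicle rats, with overlap (change 0.64, SE 0.17, adjusted p = 0.00509). Atf4 was at 11.21, 11.22, 11.72, 11.20 and 10.94 in FK506 rats, against 10.90, 10.78, 10.81, 10.80 and 10.70 in vehicle rats (change 0.46, SE 0.09, adjusted p = 0.000208). Xbp1 was at 11.35, 11.08, 11.05, 11.15 and 11.45 in FK506 rats, against 10.75, 10.86, 10.73, 11.04 and 10.86 in vehicle rats (change 0.37, SE 0.10, adjusted p = 0.00369). For Atf4 and Xbp1 every FK506 rat was above every vehicle rat. Psph was at 8.46, 9.07, 8.48, 8.61 and 8.56 in FK506 rats, against 8.97, 9.45, 8.89, 9.16 and 9.19 in vehicle rats, and fell by 0.49 (SE 0.17, adjusted p = 0.0289) with overlap. Selenos rose by 0.25 and Canx by 0.17. Without vehicle replicate 2 the count was 3. Control transcripts spiked into the hybridization averaged 8.86 ± 1.08 on these FK506 arrays (SD, n = 5), against 10.43 ± 0.07 on vehicle arrays (SD, n = 5). With that level in the model Atf4 stayed called (0.34, adjusted p = 0.0477), while Asns (0.37, adjusted p = 0.292) and Xbp1 (0.32, adjusted p = 0.0707) did not. Tubular injury markers moved here too, 8 of 9 being higher, with sums of 14965 to 35564 in FK506 rats, against 5691 to 8040 in vehicle rats, and 7 of 10 myeloid markers were higher, and their part was not tested.

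FK506 at 0.6 mg/kg called 1 member in all. Syvn1, the ubiquitin ligase of ER-associated degradation, was at 8.79, 8.83, 8.97 and 8.59 in FK506 rats at day 7, against 9.34, 8.99, 9.16 and 9.27 in vehicle rats (change -0.39, SE 0.11, adjusted p = 0.0275), while 1.93% of all genes were called in either direction. The Gapdh 3′ minus 5′ level averaged 0.43 ± 0.03 in these FK506 rats, against 0.76 ± 0.13 in vehicle rats (SD, n = 4 each), and with it in the model the Syvn1 change was -0.17 (adjusted p = 0.515). With the arrays of the day alone its adjusted p was 0.0724. At days 1, 14 and 28 limma called 0 members, against 0, 0.872 and 4.33 percent of all genes. An unadjusted p under 0.05 was found for 0, 4 and 4 of 35 members, and for 375, 1482 and 1887 of 10663 genes. Set directly against 0.6 mg/kg, 6 mg/kg differed in 1 member, Psph at day 28 (8.64 against 9.22, difference -0.59, SE 0.16, adjusted p = 0.0332), against 1.62% of all genes in either direction. The hybridization controls averaged 8.86 ± 1.08 on the 6 mg/kg arrays (SD, n = 5), against 10.15 ± 0.42 on the 0.6 mg/kg arrays (SD, n = 6). The groups overlapped, and the call was lost with probe sets apart, with arrays of the day alone, with the hybridization control level in the model and without any 1 of FK506 6 mg/kg replicates 1, 3 and 4. At days 1, 7 and 14 limma called 0 members between these doses, against 0, 0.00938 and 0.0844 percent of all genes. On each day 1 member had an unadjusted p under 0.05, as had 456, 541 and 982 of 10663 genes.

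Set directly against FK506 6 mg/kg, CsA 25 mg/kg had higher levels of 4, 8 and 8 members at days 7, 14 and 28 and lower levels of none. The doses in mg/kg differ, so the comparison holds for these doses and not for the drugs at equal dose. At day 7, 0.769% of genes were higher and 0.169% lower, at day 14 1.43% and 0.544%, and at day 28 2.02% and 3.69%. The members higher at day 7 were Sdf2l1 (8.91 against 8.17, difference 0.74), Sec61b (0.61), P4hb (0.42) and Pdia6 (0.37). At day 14 they were Asns (8.46 against 7.29, difference 1.17, SE 0.21, adjusted p = 0.000127), Sdf2l1 (9.03 against 8.06, difference 0.97, SE 0.18, adjusted p = 0.000222), Dnajb9 (0.60), Sec61b (0.59), Dnajc3 (0.50), P4hb (0.44), Pdia6 (0.42) and Canx (0.27). At day 28 they were Asns (8.36 against 7.58, difference 0.78, adjusted p = 0.00337), Dnajb9 (0.77), Sec61b (11.12 against 10.39, difference 0.73, adjusted p = 1.35e-06), Psph (0.69), Manf (0.57), Pdia6 (0.47), P4hb (0.27) and Selenos (0.25). Sec61b, Pdia6 and P4hb were thus higher on all these days. At day 1 limma called 0 members, against 0.694% of all genes in either direction. An unadjusted p under 0.05 was found for 6 of 35 members and 841 of 10663 genes.

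Members that rose with both drugs against vehicle at day 28 did not all differ between them. Atf4 differed by 0.15 (95% interval -0.05 to 0.35) and Xbp1 by 0.18 (95% interval -0.02 to 0.39), neither called, and these intervals do not show that the drugs act alike. Hspa5 differed by 0.40 (95% interval 0.13 to 0.67, adjusted p = 0.0589), not called. The hybridization controls averaged 10.71 ± 0.10 on the CsA arrays of day 28 (SD, n = 4), against 8.86 ± 1.08 on the FK506 arrays (SD, n = 5). With that level in the model 4 members were called, with the arrays of the day alone 4, and without the array that held the zeros 6. Pdia6, Asns and Sec61b were called under every setting and with every single rat left out. At day 14 the call count was 5 without CsA replicate 3 or FK506 replicate 2, and at day 7 it was 2 without CsA replicate 1.

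**Figure D3:**
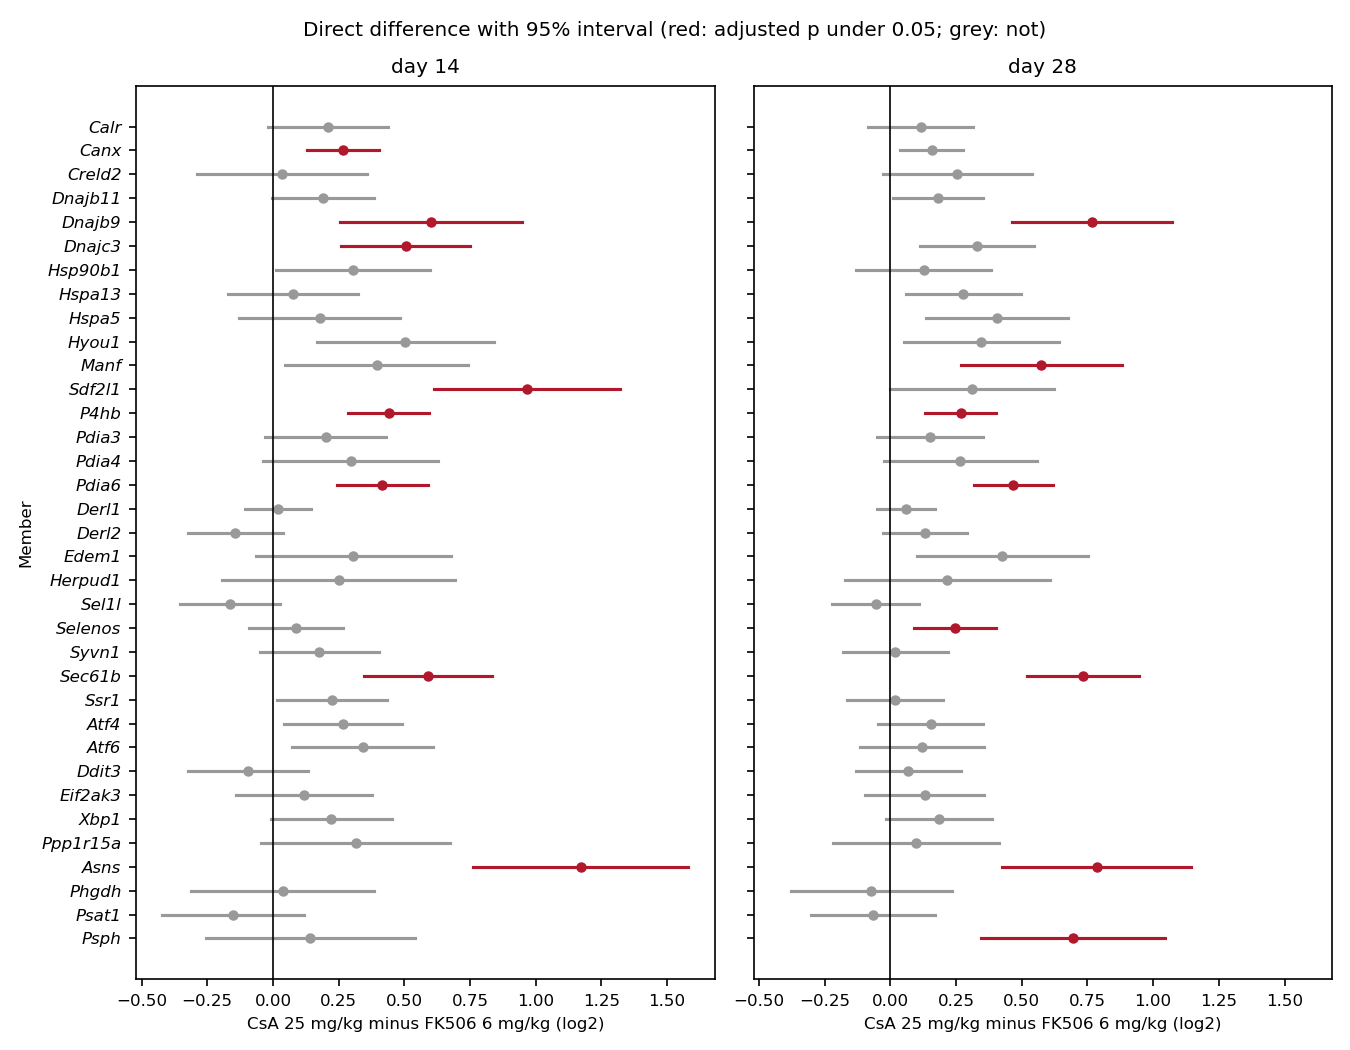
Difference in level, CsA 25 mg/kg minus FK506 6 mg/kg (log2), of each tested member at days 14 and 28, with 95% intervals from the model. At both days Asns, Dnajb9, Sec61b, Pdia6 and P4hb are among the members called, and Atf4 and Xbp1 at day 28 have intervals that include 0.

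Rapa lowered more members than it raised at day 1 with either dose and at days 7, 14 and 28 with 1 mg/kg. With 10 mg/kg the later days did not share this, with 2 higher and none lower at day 7, 1 and 1 at day 14, and 3 and 4 at day 28. Sdf2l1 fell in most of the Rapa comparisons with vehicle. Among all genes, too, more were called lower than higher at days 7, 14 and 28 with either dose, though not at day 1. After 1 dose of 10 mg/kg, 7 members fell and none rose, against 1.13% of all genes lower and 1.7% higher. Sdf2l1 was at 7.81, 7.88, 7.86 and 8.04 in Rapa rats, against 8.53, 8.29, 8.99 and 8.34 in vehicle rats (change -0.64, SE 0.17, adjusted p = 0.0129). Pdia3 was at 11.02, 11.03, 11.19 and 11.14 in Rapa rats, against 11.61, 11.58, 11.73 and 11.67 in vehicle rats (change -0.55, SE 0.11, adjusted p = 0.000526). Every Rapa rat was below every vehicle rat in both genes. Atf6 was at 8.92, 8.94, 8.72 and 9.18 in Rapa rats, against 9.62, 9.31, 9.52 and 9.50 in vehicle rats (change -0.55, SE 0.13, adjusted p = 0.00394). Hspa5 was at 11.48, 11.38, 11.72 and 11.38 in Rapa rats, against 11.96, 11.80, 12.37 and 11.76 in vehicle rats (change -0.48, SE 0.14, adjusted p = 0.043). Here too no Rapa rat reached the vehicle range. Dnajc3 fell by 0.46, Sel1l, the partner of Syvn1, by 0.32 and Pdia6 by 0.27. With 1 mg/kg, 5 members fell and none rose, against 1.11% of genes lower and 1.97% higher. Pdia3 was at 11.04, 11.33, 11.13 and 10.90 in these rats (change -0.55, adjusted p = 0.000579) and Atf6 at 9.10, 9.04, 9.01 and 8.98 (change -0.46, adjusted p = 0.0225), against the vehicle values above, and Sel1l (-0.40), Dnajc3 (-0.39) and Pdia6 (-0.29) fell as well.

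The Gapdh 3′ minus 5′ level of day 1 averaged 0.73 ± 0.15 with Rapa 10 mg/kg and 0.68 ± 0.16 with Rapa 1 mg/kg, against 0.32 ± 0.07 with vehicle (SD, n = 4 each). With this measure in the model none of the 7 members was called at 10 mg/kg and 1, Pdia6, was called at 1 mg/kg. For Rapa 10 mg/kg, Pdia3 then had a change of -0.34 (adjusted p = 0.265) and Atf6 of -0.25 (adjusted p = 0.567), while Sdf2l1 had -0.67 (adjusted p = 0.164) and Hspa5 -0.58 (adjusted p = 0.151), which were no smaller than without it. Leaving out vehicle replicate 3 left 3 calls at 10 mg/kg.

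**Figure D4:**
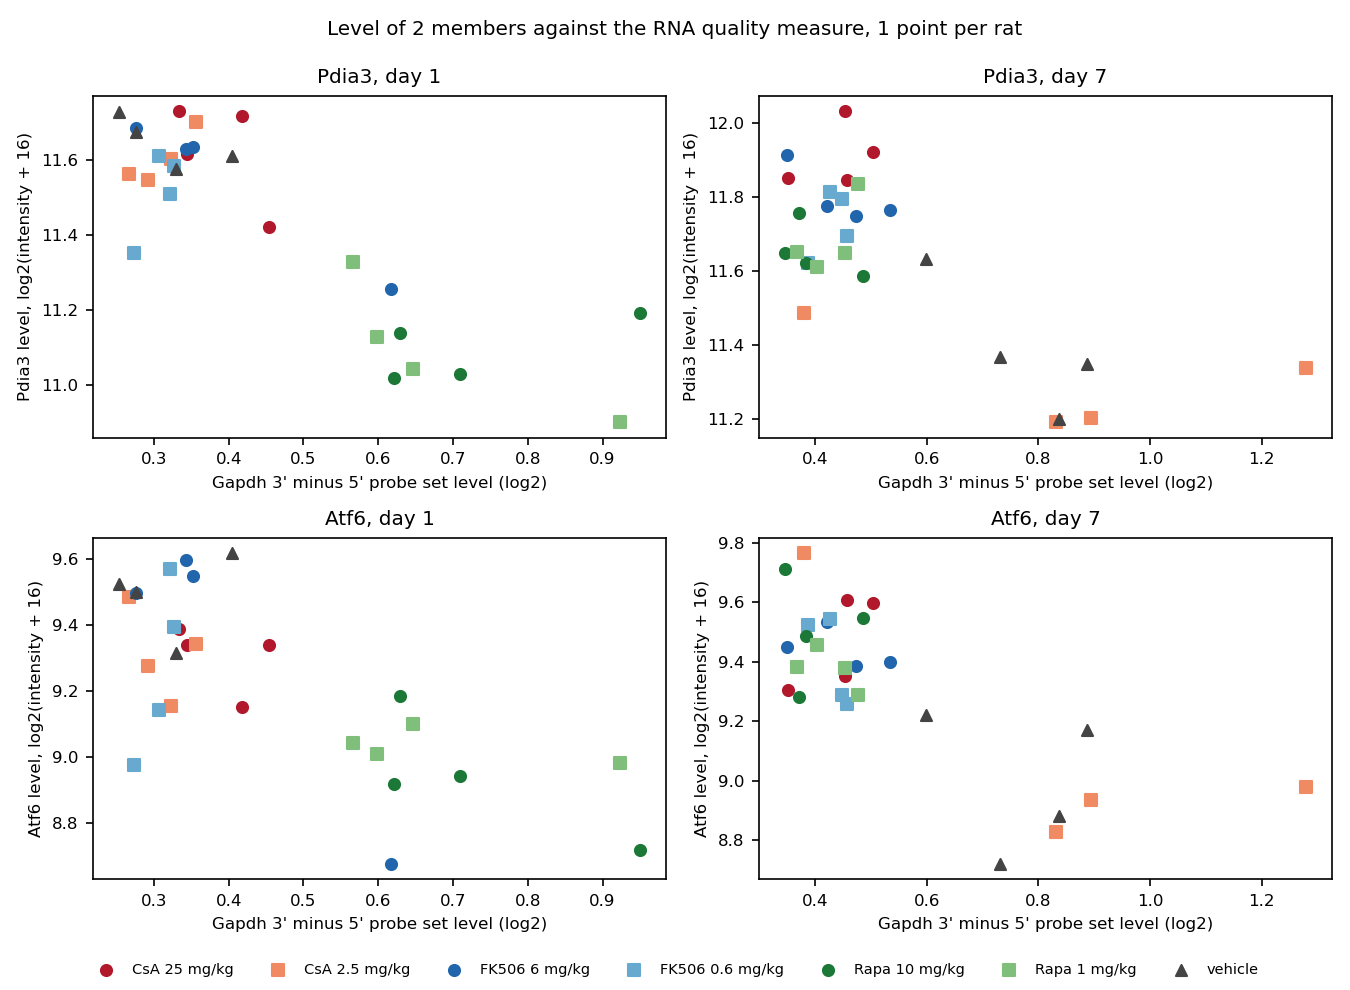
Level of Pdia3 and of Atf6 (log2(intensity + 16)) against the Gapdh 3′ minus 5′ level (log2) on the same array at days 1 and 7, 1 point per rat, coloured by drug and dose. In vehicle rats Atf6 averaged 9.00 at day 7, where the Gapdh measure averaged 0.76, and 9.49 at day 1, where it averaged 0.32.

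At day 7 Rapa 10 mg/kg raised 2 members and lowered none, against 3% of genes higher and 4.3% lower. Atf6 was at 9.49, 9.55, 9.28 and 9.71 in Rapa rats, against 9.17, 9.22, 8.72 and 8.88 in vehicle rats (change 0.51, SE 0.13, adjusted p = 0.005), and Xbp1 was at 11.04, 11.25, 11.34 and 11.27 in Rapa rats, against 10.72, 10.76, 10.83 and 10.97 in vehicle rats (change 0.41, SE 0.11, adjusted p = 0.00978). Both sets of rats were apart, but with the Gapdh measure in the model only Xbp1 was called (0.46, adjusted p = 0.0128). Rapa 1 mg/kg lowered 3 members and raised none, against 2.61% of genes lower and 1.61% higher. Sdf2l1 was at 7.79, 7.72, 7.96 and 8.04 in Rapa rats, against 8.61, 8.82, 8.33 and 8.31 in vehicle rats (change -0.64, SE 0.17, adjusted p = 0.0123), Syvn1 was at 8.82, 8.87, 8.86 and 8.68 in Rapa rats, against 9.34, 8.99, 9.16 and 9.27 in vehicle rats (change -0.38, SE 0.11, adjusted p = 0.022), and Ddit3 fell by 0.34. With the Gapdh measure none of the 3 was called, and Sdf2l1 had a change of -0.62 (adjusted p = 0.0519).

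At day 14 the Gapdh measure averaged 0.43 ± 0.03 with Rapa 10 mg/kg and 0.50 ± 0.11 with Rapa 1 mg/kg, against 0.36 ± 0.04 with vehicle (SD, n = 4 each), and every call of either dose held with it in the model. Sdf2l1 was at 7.66, 8.0, 7.39 and 7.94 with Rapa 10 mg/kg and at 8.01, 7.78, 7.86 and 7.93 with Rapa 1 mg/kg, against 8.63, 8.52, 8.54 and 8.68 with vehicle. No Rapa rat of either dose reached the vehicle range, and the changes were -0.84 (SE 0.17, adjusted p = 0.000175) and -0.70 (SE 0.17, adjusted p = 0.00295), or a level 1.8-fold lower at 10 mg/kg. At 10 mg/kg Atf6 also rose, at 9.69, 9.59, 9.81 and 9.62 in Rapa rats, against 9.27, 9.36, 9.30 and 9.23 in vehicle rats (change 0.39, SE 0.13, adjusted p = 0.0303). That made 1 member higher and 1 lower, against 5.19% of genes higher and 5.3% lower. At 1 mg/kg 1 rose and 3 fell, against 4.08% higher and 4.97% lower. Phgdh, the first enzyme of serine synthesis, was at 9.63, 9.84, 9.75 and 8.72 in Rapa rats, against 9.70, 10.37, 10.47 and 10.11 in vehicle rats, with overlap (change -0.68, SE 0.16, adjusted p = 0.00315). Calr fell by 0.34 and Hspa13 rose by 0.49. Without Rapa 1 mg/kg replicate 4, the rat lowest for Phgdh, 2 members were called.

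At day 28 Rapa 10 mg/kg raised 3 members and lowered 4, against 7.57% of genes higher and 8.16% lower, so that in the higher direction the members stood close to the background. Over the 6 Rapa rats the lowest, median and highest levels of Phgdh were 9.30, 9.79 and 10.02, against 10.13, 10.40, 10.20, 10.41 and 10.25 in the vehicle rats, with no overlap (change -0.53, SE 0.14, adjusted p = 0.00346). For Psph they were 8.11, 8.50 and 8.97 in Rapa rats, against 8.97, 9.45, 8.89, 9.16 and 9.19 in vehicle rats (change -0.62, SE 0.16, adjusted p = 0.0032). Sdf2l1 lay at 7.52, 8.02 and 8.44 in Rapa rats, against 8.57, 8.53, 8.29, 8.29 and 8.72 in vehicle rats (change -0.47, SE 0.14, adjusted p = 0.0117). The last pair of genes overlapped between the groups. Calr, a lectin chaperone that binds calcium, fell by 0.36, and Xbp1 (0.37), Atf4 (0.28) and Canx (0.26) rose, although the Xbp1 and Canx groups overlapped.

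With Rapa 1 mg/kg at day 28, 1 member rose and 5 fell, against 4.75% of genes higher and 5.09% lower. Sdf2l1 lay at 7.57, 7.84 and 7.97 in Rapa rats (lowest, median and highest of 6), against 8.57, 8.53, 8.29, 8.29 and 8.72 in vehicle rats, fully apart (change -0.67, SE 0.14, adjusted p = 0.000606). Hspa5 lay at 11.13, 11.46 and 12.04 in Rapa rats, against 11.96, 12.03, 11.81, 12.32 and 12.15 in vehicle rats, with overlap (change -0.56, SE 0.12, adjusted p = 0.000951). Psph fell by 0.53, Hsp90b1 by 0.40 and Calr by 0.32, while Atf4 rose by 0.33. The hybridization controls averaged 9.38 ± 1.22 on these Rapa arrays (SD, n = 6), against 10.43 ± 0.07 on vehicle arrays (SD, n = 5). With that level in the model 4 members were called, and Sdf2l1 (-0.71) and Hspa5 (-0.41) were among them. In the 10 mg/kg rats 1 of 9 tubular injury markers was higher and 1 of 10 myeloid markers was higher and 1 lower.

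Over both Rapa doses and all days 13 members fell at least once and 5 rose at least once, counts that were not made for all genes. Atf6, Dnajc3, Pdia3, Pdia6 and Psph rose with CsA 25 mg/kg on some day and fell with a Rapa dose on some day, and Atf6 also rose with Rapa 10 mg/kg at days 7 and 14. The Rapa falls of Atf6, Dnajc3, Pdia3 and Pdia6 were those of day 1, which with the Gapdh measure in the model were lost except for Pdia6 at 1 mg/kg, as were the CsA rises of Atf6 and Pdia3 at day 7. Between the Rapa doses themselves limma called 0 members on any day, against 0, 0, 0 and 0.122 percent of all genes in either direction on days 1, 7, 14 and 28. An unadjusted p under 0.05 was found for 2, 4, 1 and 5 of 35 members, and for 373, 918, 588 and 902 of 10663 genes.

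Set directly against Rapa 10 mg/kg at day 1, CsA 25 mg/kg was higher for 8 members and lower for none, against 2.56% of genes higher and 4.08% lower. Sdf2l1 (8.74 against 7.90, difference 0.84, adjusted p = 0.000269), Hspa5 (12.21 against 11.49, difference 0.72, adjusted p = 0.000361) and Manf (10.23 against 9.54, difference 0.69) led, followed by Dnajc3, Pdia3, Sec61b, Pdia6 and Sel1l. FK506 6 mg/kg was higher than Rapa 10 mg/kg at day 1 for 5 members, Sdf2l1 (0.73), Hspa5 (0.55), Psat1 (0.50), Pdia3 (0.46) and Selenos (0.31), and lower for none, against 0.807% of genes higher and 0.75% lower. The Gapdh 3′ minus 5′ level of day 1 averaged 0.39 ± 0.06 with CsA 25 mg/kg and 0.40 ± 0.15 with FK506 6 mg/kg, against 0.73 ± 0.15 with Rapa 10 mg/kg (SD, n = 4 each). With it in the model 7 members were called for CsA and 2 for FK506. Without the arrays of high Alb 5 were called for CsA. Hspa5, Sdf2l1 and Pdia6 were called for CsA under every setting and with every single rat left out, and no member was for FK506, whose count fell to 0 without FK506 replicate 2, to 1 without replicate 1 or 3, and to 2 and 3 without Rapa replicate 2 and 4, and was 8 without FK506 replicate 4.

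At day 7, CsA 25 mg/kg was higher than Rapa 10 mg/kg for 14 members and lower for 1, against 5.96% of genes higher and 3.46% lower. Sdf2l1 (8.91 against 8.03, difference 0.88, adjusted p = 7.6e-05), Psph (9.68 against 8.80, difference 0.88) and Asns (7.62 against 6.80, difference 0.82) led, and Ddit3 was lower (7.99 against 8.33, difference -0.33, adjusted p = 0.0307). Of these 15 members, 11 were called under every setting and with every single rat left out, Hspa5 (0.59) and Hsp90b1 (0.71) among them. FK506 6 mg/kg at day 7 was higher for 1 member, Selenos (0.39), and lower for 3, Herpud1 (10.16 against 10.83, difference -0.67), Creld2 (-0.47) and Ddit3 (-0.38), against 4.09% of genes higher and 2.35% lower. Selenos alone of these was called under every setting and with every single rat left out, and 2 members were called with probe sets apart and without any 1 of 5 rats, namely FK506 replicates 2 and 4 and Rapa replicates 2, 3 and 4.

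Set directly against Rapa 10 mg/kg, CsA 25 mg/kg was higher for 18 of 35 members at day 14 and lower for none, against 8% of genes higher and 6.74% lower. The differences were 1.47 for Asns (8.46 against 6.99), 1.28 for Sdf2l1 (9.03 against 7.75, adjusted p = 5.1e-09) and 0.87 for Manf (10.49 against 9.62). At day 28, 15 were higher and none lower, against 10.4% higher and 9.46% lower, with Asns at 8.36 against 7.16 (difference 1.20), Psph at 9.33 against 8.51 (0.82) and Manf at 10.66 against 9.95 (0.70). Without the array that held the zeros 16 were higher and 1 lower at day 28.

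FK506 6 mg/kg against Rapa 10 mg/kg gave few calls of members at day 14, in numbers near the share of all genes, and calls in both directions at day 28. At day 14, 3 were higher and 1 lower, against 4.84% of genes higher and 4.57% lower, with Sel1l (0.33), Selenos (0.29) and Derl1 (0.25) higher and Atf6 lower (9.25 against 9.68, difference -0.43). None of these was called under every setting and with every single rat left out, and 2 were called with probe sets apart. At day 28, 4 were higher and 4 lower, against 6.83% and 4.13%. Calr (11.64 against 11.18, difference 0.46), Phgdh (0.42), Hsp90b1 (0.36) and Selenos (0.23) were higher, and Edem1, which hands misfolded glycoproteins to degradation (10.48 against 10.90, difference -0.43), Creld2 (-0.37), Hspa13 (-0.31) and the translocon subunit Ssr1 (-0.25) were lower. The hybridization controls averaged 8.86 ± 1.08 on these FK506 arrays (SD, n = 5), against 10.44 ± 0.17 on the Rapa arrays (SD, n = 6). With that level in the model 2 members were called, with the arrays of the day alone 2, with probe sets apart 1, and with 1 FK506 rat left out 4 to 5. The Rapa rats of this day were not left out. Calr was the one called under every setting.

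The effect of CsA 25 mg/kg at day 28 exceeded its effect at day 1 for 5 members and was below it for none, against 2.83% of genes higher and 2.14% lower. These were Asns (difference of effects 1.20, SE 0.26, adjusted p = 0.00202), Atf4 (0.55), Selenos (0.45), Pdia6 (0.40) and P4hb (0.33). Without the 4 arrays of high Alb only Asns was called, and without the array that held the zeros 5 were. The effect of Rapa 10 mg/kg was higher at day 28 than at day 1 for 4 members and lower for 1, against 2.19% and 3.36% of genes. Atf6 (0.71), Pdia3 (0.70), Xbp1 (0.51) and Canx (0.36) were the higher ones and Syvn1 (-0.44) the lower one, and 2 were called with the Gapdh measure in the model. For FK506 6 mg/kg limma called 0 members, while 3.3% of all genes were called in either direction. An unadjusted p under 0.05 was found for 3 of 35 members and 1841 of 10663 genes.

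Vehicle rats themselves differed by day. At day 7 against day 1 Dnajb9 (9.84 against 9.30, difference 0.54) and Ddit3 (8.30 against 7.91, difference 0.40) were higher and Atf6 (9.00 against 9.49, difference -0.49) lower, against 2.4% of genes higher and 1.49% lower, and none of these was called with the Gapdh measure in the model. At days 14 and 28 against day 1 limma called 0 members, against 0.366% and 2.08% of genes in either direction. On each day 1 member had an unadjusted p under 0.05, as had 1342 and 1561 of 10663 genes. Age and the number of vehicle doses cannot be told apart here.

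Related genes that are not members were counted from lists chosen for their roles, with earlier results of these data known. At day 28 of CsA 25 mg/kg, 20 of 35 other genes of ER translocation and early secretion rose and 0 fell, with a median change of 0.24, against 10.5% of all genes higher and 10.7% lower. The channel subunit Sec61a1 rose by 0.63 (SE 0.07, adjusted p = 2.39e-10), the translocon subunit Ssr3 by 0.58, the cargo receptor Tmed2 by 0.54 and the retrieval receptor Kdelr3 by 0.53. At day 14, 15 of these 35 rose, against 4.75% of all genes higher, and at day 7, 9 rose and 1 fell, against 2.17% higher and 1.8% lower. Of 34 genes listed under other ER folding and glycoprotein quality control, 13 rose and 3 fell at day 28 of CsA. Among them were Cdk5rap3 (1.75), Nucb2 (0.87), Ero1b, an oxidase that recharges disulfide isomerases (0.77), and Stt3a, a glycosylation enzyme (-0.79). Of 19 other degradation genes 5 rose and 1 fell, Sec61a1 being counted there too. With FK506 6 mg/kg at day 28 the translocation and secretion list had 8 higher and 5 lower, against 8.73% and 7.29% of all genes, and with Rapa 10 mg/kg 5 higher and 2 lower, against 7.57% and 8.16%.

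Among other genes of the Atf4 and integrated stress response, 7 of 34 rose and 4 fell at day 28 of CsA 25 mg/kg, the share that fell being near that of all genes. In that comparison 10.5% of all genes were higher and 10.7% lower, which is the background of each CsA count in this paragraph. The stress factor Atf3 rose by 2.26 (SE 0.31, adjusted p = 1.82e-08), Nupr1 by 1.68 and Atf5 by 0.54, and the tRNA exporter Xpot fell by 1.60. The aminoacyl-tRNA synthetases, many of them Atf4 targets, had 5 of 19 higher and 0 lower, including Yars1 (0.41), Gars1 (0.38), Lars1 (0.29) and Nars1 (0.29). FK506 6 mg/kg at day 28 raised 3 and lowered 1 of the 34, with Atf3 at 1.61, Nupr1 at 0.99, Sesn2 at 0.44 and Cth at -0.32, and raised 5 and lowered 1 of the 19 synthetases, with Gars1 at 0.37 and Eprs1 at -0.47. With FK506 8.73% of all genes were higher and 7.29% lower, and the 3 higher of 34 are near that share. Rapa 10 mg/kg at day 28 raised 3 and lowered 6 of the 34, with Nupr1 at 0.92, Gdf15 at -0.75, Vldlr at -0.64 and the amino acid transporter Slc7a5 at -0.55. With Rapa 7.57% of all genes were higher and 8.16% lower, and the 3 higher of 34 are near that share. Of 17 other sensing and outcome genes 4 rose and 1 fell with CsA at day 28, against 10.5% of all genes higher and 10.7% lower. The largest changes were Ptpn1 at -0.84, Bcl2l11 at 0.52, Bbc3 at 0.46 and Creb3 at 0.44. Of 16 cytosolic heat shock genes 1 rose and 5 fell, against the same shares of all genes, with Cryab at -0.56, Chordc1 at -0.39, Stip1 at -0.29 and Dnajb4 at 0.31.

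Of the 35 tested members, 8 were called in none of the 24 comparisons with vehicle, a count not made for all genes. These were the chaperone partners Dnajb11, Creld2 and Hyou1, the degradation genes Herpud1 and Edem1, the sensor Eif2ak3, the serine synthesis enzyme Psat1 and the translocon subunit Ssr1. Where a member had a further probe set, the results were not always alike. At day 28 of CsA the second and the third Canx probe set gave 0.16 (adjusted p = 0.509) and 0.20 (adjusted p = 0.0111), and a second Pdia3 probe set gave -0.16 (adjusted p = 0.418), a value for that probe set alone. A second Ssr1 probe set gave 0.51 (adjusted p = 0.0327), where the one used gave -0.07. The dim members had no filtered test. In the limma fit without the dim filter, Mthfd2 changed by 1.05 with CsA 25 mg/kg at day 28 (adjusted p = 0.0078). In that fit Trib3 changed by 0.79 with Rapa 1 mg/kg at day 14 (adjusted p = 0.0202). Their rats are given for these comparisons, the ones with vehicle called there. Mthfd2, an enzyme of mitochondrial one-carbon metabolism, was at 4.52, 5.93, 5.91 and 6.06 in CsA 25 mg/kg rats at day 28, against 4.32, 5.07, 4.50, 4.36 and 4.51 in vehicle rats, so that 1 CsA rat lay within the vehicle range. Trib3, a pseudokinase that restrains Atf4, was at 6.71, 5.51, 5.65 and 6.17 in Rapa 1 mg/kg rats at day 14, against 5.28, 5.43, 5.70 and 4.48 in vehicle rats, with overlap.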

How the data were processed

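Per the labels' protocols, biotin-labelled cRNA of kidney RNA was hybridized to Affymetrix Rat 230 2.0 arrays, scanned and read with the GeneChip Operating Software. The deposited intensity of each probe set is on a linear scale, and its summarization and scaling are not given in the sources used here. Intensities of 31099 probe sets, 57 of them controls, were set to log2(intensity + 16) and quantile normalized together. The controls were then left out of the tests. Of the other probe sets, 20826 map to 1 gene in the probe annotation, 436 to several and 9780 to none. Each gene was read from its brightest probe set on average (14217 genes), and the dimmest 25% (3554 genes, limit 5.75) were left out. limma 3.58.1 (R 4.3.3) fitted 1 mean per group to 120 arrays (92 residual df), two-sided, with Benjamini-Hochberg adjustment over 10663 genes for each of 54 comparisons. Nothing in the labels gives litters or cages, so p-values measure the spread between these rats. The number of arrays limits the precision.

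Rats' values are given for up to 4 called members of largest change with a higher dose against vehicle and up to 2 with a lower dose. In the other lists up to 4 called genes are named. The members and lists were chosen with earlier results of these data known. Alternatives covered normalization, offset, dim filter, probe sets apart, an intensity trend, arrays of the day alone, the Gapdh and hybridization covariates and arrays of high Alb. Each of 98 rats was also left out in turn. Added after the data were seen were the same alternatives for the comparisons between drugs, doses and days, and Rapa 1 mg/kg at day 28 without replicate 4. Protein sequences were not analysed here. One promoter sequence is not reported here. The test was tried on simulated data.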

Additional observations from a re-analysis of the deposited data

Results flagged for a closer look

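A rat apart from the rest of its group was found in 4 of 74 groups of called members examined, by the gap between an extreme rat and its nearest neighbour as a share of the group's range, and chance gives about 1 in 20. Sec61b was at 11.19 in CsA 25 mg/kg replicate 1 at day 7, where the other CsA rats were at 10.90 to 10.93. Pdia3 was at 11.91 in FK506 6 mg/kg replicate 4 at day 7, where the others were at 11.75 to 11.78. Psph was at 9.07 in FK506 6 mg/kg replicate 2 at day 28, where the others were at 8.46 to 8.61. Sec61b was at 10.90 in vehicle replicate 1 at day 28, where the others were at 10.26 to 10.40.

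The effect of a drug differed between day 28 and day 1, by a test of that difference in limma, for 5 members with CsA 25 mg/kg and 5 with Rapa 10 mg/kg. For CsA the difference of effects was 1.20 for Asns (adjusted p = 0.00202), 0.55 for Atf4 (adjusted p = 0.013), 0.45 for Selenos (adjusted p = 0.00867), 0.40 for Pdia6 (adjusted p = 0.0184) and 0.33 for P4hb (adjusted p = 0.0345). For Rapa it was 0.71 for Atf6 (adjusted p = 0.00297), 0.70 for Pdia3 (adjusted p = 0.00057), 0.51 for Xbp1 (adjusted p = 0.0173), 0.36 for Canx (adjusted p = 0.00319) and -0.44 for Syvn1 (adjusted p = 0.0423). The day 1 Rapa rats are those with the high Gapdh 3′ minus 5′ level, and its part in the Rapa differences was not tested beyond the covariate given in the results.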

How the results depend on the processing

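Of 230 calls of a member, 124 held under every setting other than leaving out a rat and 103 under every setting, 108 were lost at least once with a rat left out, and 0 values changed sign. For comparisons other than with vehicle these settings were not planned. No paired analysis was possible because the rats' numbers in the labels are unique to each rat. In turn, 98 rats were left out. Leaving out the rats of CsA 2.5 mg/kg at day 1 was not run. Nor was it run for the groups of 6 rats, FK506 0.6, Rapa 10 and Rapa 1 mg/kg at day 28. The exception was Rapa 1 mg/kg replicate 4, against vehicle. The cause of the moves below was not tested. With the Gapdh measure, members called against vehicle became 0 for Rapa 10 mg/kg and 1 for Rapa 1 mg/kg at day 1, 0 for FK506 6 mg/kg, 0 for FK506 0.6 mg/kg, 1 for Rapa 10 mg/kg and 0 for Rapa 1 mg/kg at day 7, 4 for CsA 25 against 2.5 mg/kg at day 7, 2 for FK506 6 mg/kg against Rapa 10 mg/kg at day 1, 2 for the Rapa effect of day 28 against day 1 and 0 for vehicle day 7 against day 1. With the hybridization controls they became 2 for FK506 6 mg/kg, 4 for CsA 25 mg/kg against FK506 6 mg/kg 2 for FK506 6 mg/kg against Rapa 10 mg/kg and 0 for FK506 6 against 0.6 mg/kg, all at day 28. With arrays of the day alone they became 0 for CsA 25 mg/kg at day 1, 1 for FK506 6 mg/kg, 0 for FK506 0.6 mg/kg and 0 for Rapa 1 mg/kg at day 7, 2 for CsA 25 mg/kg against FK506 6 mg/kg at day 7 and 4 at day 28, 4 for CsA 25 against 2.5 mg/kg at day 7 3 and 2 for FK506 6 mg/kg against Rapa 10 mg/kg at days 1 and 28 and 0 for FK506 6 against 0.6 mg/kg at day 28. With probe sets apart they became 2 for FK506 6 mg/kg at day 7, 1 for Rapa 10 mg/kg at day 14, 5 and 6 for CsA 25 against 2.5 mg/kg at days 7 and 14, 2, 2 and 1 for FK506 6 mg/kg against Rapa 10 mg/kg at days 7, 14 and 28, and 0 for FK506 6 against 0.6 mg/kg at day 28. Without the arrays of high Alb they became 0 for CsA 25 mg/kg at day 1, 6 for CsA 25 against 2.5 mg/kg at day 14, 5 for CsA 25 mg/kg against Rapa 10 mg/kg at day 1 and 1 for the CsA effect over days. Without quantile normalization they became 4 for Rapa 10 mg/kg at day 7, 1 for FK506 0.6 mg/kg at day 28 and 3 for the CsA effect over days, and with an intensity trend 1 for the FK506 effect over days. With 1 rat left out, the lowest and highest counts were 0 and 1 for CsA 25 mg/kg at day 1, 1 and 4, 0 and 1, and 3 and 6 for FK506 6 mg/kg at days 7, 14 and 28, 0 and 6 for FK506 0.6 mg/kg at day 7, 3 and 7, 2 and 4, and 1 and 3 for Rapa 10 mg/kg at days 1, 7 and 14, and 2 and 5, 1 and 5, and 2 and 4 for Rapa 1 mg/kg at those days. They were 0 and 1, 3 and 8, and 5 and 11, for CsA 25 against 2.5 mg/kg at days 1, 7 and 14, 0 and 1 for FK506 6 against 0.6 mg/kg at day 28, 2 and 5, and 5 and 8, for CsA 25 mg/kg against FK506 6 mg/kg at those days, 0 and 8, 2 and 4, 1 and 5, and 4 and 5, for FK506 6 mg/kg against Rapa 10 mg/kg at days 1, 7, 14 and 28, 3 and 8, 0 and 1, and 4 and 7 for the CsA, FK506 and Rapa effects over days, and 0 and 3 for vehicle day 7 against day 1. Dim probe sets limit Trib3 and Mthfd2, and Ern1 was not on the array.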

Other observations

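Within groups, members varied together to different degrees. Across the 119 arrays other than the one that held the zeros, with each level taken as its deviation from its group mean, Pearson's r was 0.70 for Hsp90b1 with Calr, 0.60 for Dnajb9 with Herpud1, 0.59 for Calr with Hyou1, 0.58 for Sdf2l1 with Pdia6, 0.56 for Psph with Phgdh and 0.48 for Atf4 with Ppp1r15a. These were among the highest values. The median was 0.17 over the 66 pairs of chaperones and 0.01 over the 21 pairs of degradation genes. It was -0.37 for Pdia3 with Syvn1, -0.34 for P4hb with Psph, -0.34 for Dnajb9 with Ssr1 and -0.12 for Asns with Hspa5. The 2 genes of a pair share each array and its RNA, and these values are a description with no test.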
